A study of Mus musculus with 6 samples.

Results

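Galectins are sugar-binding proteins that recognize beta-galactosides on glycoproteins and glycolipids. To describe how the galectin genes are expressed in Tregs with and without Zfp335, all genes whose symbol starts with Lgals followed by a digit were taken from a table of RNA-Seq counts, leaving out Lgals3bp, which encodes a galectin ligand. Of 13709 gene rows, 6 were galectins: Lgals1, Lgals3, Lgals4, Lgals7, Lgals8 and Lgals9. The counts came from CD4+YFP+CD25+ Tregs of C57BL/6 mice, in 3 WT (Foxp3Cre) and 3 KO (Foxp3Cre Zfp335 fl/fl) samples. The methods give an age of 2 weeks for the mice. The labels call the WT mice littermates and name both lymph nodes and spleen as the source of the cells. Both genotypes carry Cre and YFP made from the Foxp3 locus, so that in KO mice the deletion of Zfp335 is directed to cells that express Foxp3. KO mice develop inflammation in many organs and die young, and effects of the deletion within the cell and of inflamed surroundings cannot be told apart here. Whether a sample was 1 mouse or a pool was not stated, and p-values measure the spread between these samples only.

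Galectins are made without a signal peptide and leave the cell by a route outside the classical secretory pathway. Outside the cell they cross-link glycoproteins, and inside it several of them bind sugars exposed on damaged endosomes and lysosomes. Galectin-1 (Lgals1) and galectin-7 (Lgals7) have a single sugar-binding domain, galectin-3 (Lgals3) joins its domain to a long tail through which it forms oligomers, and galectin-4, galectin-8 and galectin-9 (Lgals4, Lgals8 and Lgals9) carry a pair of domains on 1 chain. In T cells galectin-1 and galectin-9 are best known for restraining or killing activated T cells, and Tregs are known to make galectin-1.

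The sugar-binding signature was read from sequence, without use of the counts. The genes were chosen by their galectin name, so finding it in them is a description and no test. In the GENCODE M21 coding sequences (GRCm38, which mm10 denotes), the codons for histidine, any residue, asparagine, proline and arginine were found once in Lgals1, Lgals3 and Lgals7 and in 2 places in Lgals4, Lgals8 and Lgals9. They are shown because they are what these 6 genes share at the sugar-binding site, whatever their expression did. Each stretch holds 45 coding bases, 5′ to 3′, and the capitals mark the codons of the 4 fixed residues.
Lgals1: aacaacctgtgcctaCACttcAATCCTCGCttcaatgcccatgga
Lgals3: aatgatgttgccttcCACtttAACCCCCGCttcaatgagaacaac
Lgals7: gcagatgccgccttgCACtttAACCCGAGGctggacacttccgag
Lgals4 domain 1: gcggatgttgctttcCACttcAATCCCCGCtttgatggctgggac
Lgals4 domain 2: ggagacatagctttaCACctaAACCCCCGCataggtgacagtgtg
Lgals8 domain 1: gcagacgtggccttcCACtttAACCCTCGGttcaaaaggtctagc
Lgals8 domain 2: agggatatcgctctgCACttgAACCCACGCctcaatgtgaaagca
Lgals9 domain 1: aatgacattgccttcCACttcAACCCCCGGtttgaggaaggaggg
Lgals9 domain 2: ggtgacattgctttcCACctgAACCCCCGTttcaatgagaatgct

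Each of these 9 stretches lies within a single exon. That of Lgals1 is in exon 3 at chr15:78929661-78929705 on the plus strand. That of Lgals3 is in exon 5 at chr14:47384627-47384671, and that of Lgals7 in exon 3 at chr7:28865571-28865615, both on the plus strand. The stretches of Lgals4 are in exons 3 and 9, at chr7:28835864-28835908 and chr7:28841176-28841220 on the plus strand. On the minus strand, those of Lgals8 are in exons 4 and 9, at chr13:12454858-12454902 and chr13:12447237-12447281, and those of Lgals9 in exons 3 and 10, at chr11:78973111-78973155 and chr11:78965785-78965829. In every stretch the signature was followed within 40 codons by codons for a tryptophan and, 3 residues on, a glutamate, which also belong to the sugar-binding site. The signature was not found in the coding sequences of Lgals3bp, of the galectin-like gene Lgalsl or of Grifin, a lens relative of the galectins. Lgals8 shares exon sequence with Heatr1 on the opposite strand, and use of strand in the counting was not stated, so its counts are uncertain. A processed pseudogene resembles much of an Lgals8 transcript (85.8% identity over 975 of 1148 bases), and another resembles part of Lgals1 (81.0% over 426 bases).

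Before the galectins, the samples were examined. The total count was 32032631 to 40728419 per sample. Levels are given in CPM, the count per 1000000 counts of a TMM-scaled library, with the SD over the 3 samples of a genotype, and values of single samples follow the order of replicates 1, 2 and 3. Zfp335 averaged 99.4 ± 4.50 CPM in WT against 38.3 ± 1.66 CPM in KO, the direction that the labels give. The defining Treg genes were expressed in every sample, with Foxp3 at 642 to 1190 CPM in WT and 460 to 472 CPM in KO. Of 8 Treg markers, Foxp3 and Ikzf2 were called lower in KO. The 8 together summed to 4633 to 5726 CPM in WT and 3818 to 3938 CPM in KO. WT replicate 3 stood apart from the other WT samples. The summed level of 10 proliferation genes was 754 CPM in it, against 1442 and 1436 CPM in WT replicates 1 and 2 and 3996 to 4167 CPM in KO. Values without this sample are given for each galectin. They are also given for other named genes of the galectin-related lists whose fold moved by more than 1.5 times or whose call changed. Calls of cell type markers are given from all samples only. Foxp3 was 1190 CPM in WT replicate 3, against 738 and 642 CPM in WT replicates 1 and 2. Whether its call holds without WT replicate 3 was not tested. Markers of other cell types also moved with genotype, and their part in the galectin values was not tested. Across all genes tested, 11.9% were called higher in KO and 12.5% lower. The 5 markers of CD8 and NK cells summed to 12.9 to 19.0 CPM in WT and 27.0 to 28.9 CPM in KO, with 3 called higher (Cd8a, Klrb1c and Eomes). Eomes, with the largest rise, was 1.80 to 3.24 CPM in WT and 11.1 to 11.6 CPM in KO. Cd8b1, at 8.20 to 11.0 CPM in WT and 7.91 to 9.58 CPM in KO, was not called, nor was Ncr1. For the 5 measured dendritic cell markers the sums were 2.41 to 4.24 CPM in WT and 8.92 to 11.6 CPM in KO, with 1 called higher (Itgax). Itgax made up most of the KO sums, at 0.0601 to 0.731 CPM in WT and 5.75 to 8.86 CPM in KO. The others were not called, with log2 fold changes of 0.61 for Flt3, 1.02 for Siglech, -0.12 for Zbtb46 and -0.90 for Xcr1. The 3 measured neutrophil markers came to at most 0.974 CPM in WT and 5.88 CPM in KO. Of them 2 were called higher, S100a8 and S100a9, both at 0 in all WT samples. Ltf was not called, at 0.543 to 0.974 CPM in WT and 0.274 to 0.465 CPM in KO. The study reported high S100a8 and S100a9 in a dysfunctional Treg subset, from single-cell data of younger mice. The 6 B cell markers summed to 21.01 to 24.5 CPM in WT and 19.8 to 21.6 CPM in KO. Among these Cd22 was called higher and Cd79b lower, and Cd79a was 1.70 to 3.97 CPM in WT and 2.44 to 3.43 CPM in KO. Of 4 measured stromal and endothelial markers, 1 was called lower (Col1a2), and the sums were 194 to 208 CPM in WT and 137 to 146 CPM in KO. Most of this sum was Pecam1, which was not called, at 189 to 202 CPM in WT and 133 to 142 CPM in KO.

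The galectins fell into 2 sets. Lgals3, Lgals7 and Lgals1 were higher in every KO sample than in every WT sample, by 16.4-fold, 9.33-fold and 4.30-fold. Lgals4, Lgals8 and Lgals9 overlapped between genotypes, with KO at 59.3%, 93.5% and 83.0% of the WT mean. The galectins were chosen by name with their counts in these KO and WT samples already known, so these values are a description and carry no test. Of the 6 galectins, 4 passed the study's cutoffs in the fit across all genes (fold change above 1.5, p under 0.05 and adjusted p under 0.1), where 24.4% of all 13594 genes tested passed, and 47% had an adjusted p under 0.1 at any fold. Nothing is read from this count. The 4 were Lgals1, Lgals3 and Lgals7, higher in KO, and Lgals4, lower in KO. WT and KO values were fully separate for 3 of the 6 galectins, and for 53.8% of all genes. In a bulk sample, more cells that make a transcript and more transcript per cell cannot be told apart.

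**Figure D1:**
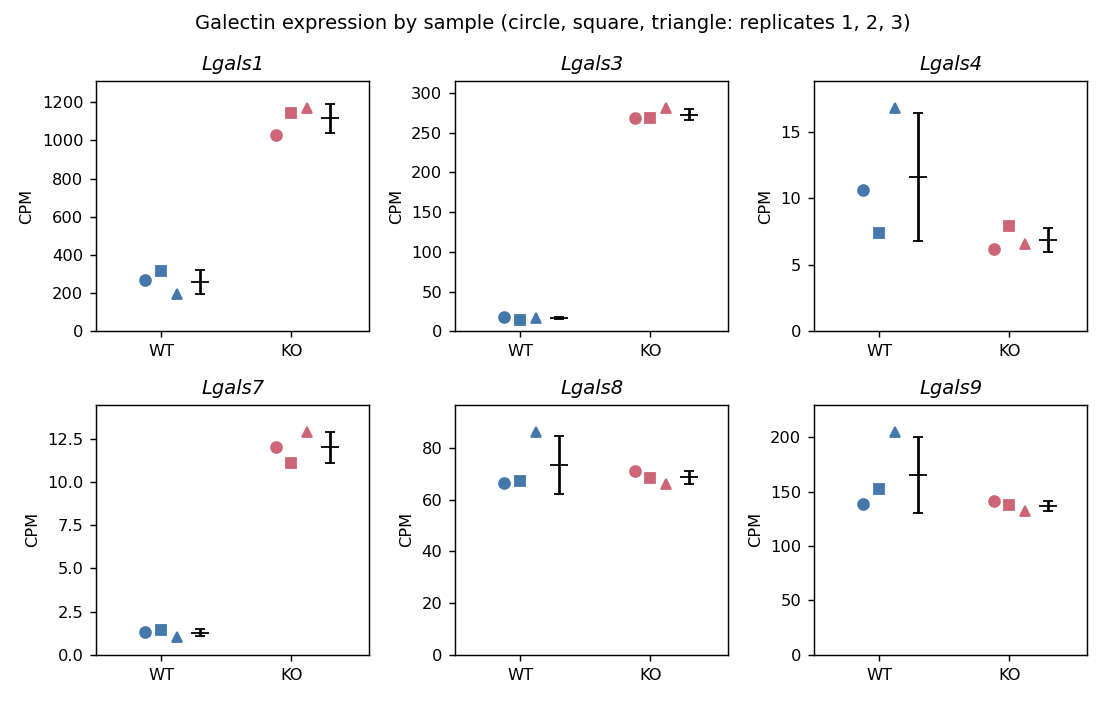
Expression of the 6 galectins in CPM (y axis, from 0) in each WT and KO sample, with 1 point per sample and the mean ± SD (n = 3) as a black bar beside them. The KO points of Lgals1, Lgals3 and Lgals7 lie above all WT points, and WT replicate 3 (triangle) is the highest WT sample of Lgals4, Lgals8 and Lgals9 and the lowest of Lgals1 and Lgals7.

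Lgals3 lies on chromosome 14 at 47367751 to 47386160. Its protein, also known as the macrophage antigen Mac-2, is made by activated T cells too, and it binds the T cell receptor and other branched glycoproteins at the cell surface. Lgals3 had values of 18.3, 14.7 and 16.9 CPM in the WT samples against 268, 269 and 281 CPM in the KO samples. The WT samples lay close together, as did the KO samples, and the groups were far apart. The log2 fold change was 4.03 (SE 0.10), and single pairs of a KO and a WT sample gave at least 3.87. This was higher than the log2 fold change of 99.2% of all genes tested. Leaving out WT replicate 3 gave 4.04.

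Markers of macrophages and monocytes also moved with genotype. Of 15 markers listed, 14 were measured, and 10 passed the cutoffs as higher in KO, against 11.9% of all genes. Their summed level was 31.6 to 40.6 CPM in WT and 95.1 to 104.5 CPM in KO. Lyz2, which encodes lysozyme, was 12.7, 13.9 and 4.30 CPM in the WT samples and 18.6 to 20.6 CPM in KO. Whether its call holds without WT replicate 3 was not tested. Csf1r, which encodes the macrophage growth factor receptor, was 0.391 to 2.68 CPM in WT and 6.27 to 7.29 CPM in KO. Adgre1, which encodes F4/80, was called higher but was at or under 1.34 CPM in every sample. The largest part of the KO sum was Mpeg1, at 3.97 to 9.88 CPM in WT and 32.6 to 34.3 CPM in KO. Cd68, C1qa, Mrc1 and Aif1 were not called, with Cd68 at 8.17 to 10.3 CPM in WT and 8.74 to 11.3 CPM in KO. No macrophage marker was at 0 in every sample of a genotype. The part of such cells in the Lgals3 values was not tested.

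Lgals7 lies on chromosome 7 at 28863853 to 28866284, starting 22144 bases beyond the end of Lgals4. Galectin-7 is known mainly from stratified epithelia such as the epidermis. Lgals7 had 49, 48 and 35 counts in the WT samples and 438, 445 and 455 counts in the KO samples. As CPM this was 1.33, 1.46 and 1.05 in WT and 11.99, 11.1 and 12.9 in KO. It was thus a gene of low expression that lay above the smallest level told from 0 (3 counts, 0.0747 to 0.0913 CPM) in all samples. The log2 fold change was 3.22 (SE 0.19) and single pairs gave at least 2.92. Without WT replicate 3 it was 3.10. Among markers of epithelial cells, Krt5, Krt14, Krt1 and Trp63 were not analysed here. The summed level of the 6 others was 77.9 to 98.4 CPM in WT and 95.2 to 100.2 CPM in KO, so these ranges overlapped, and most of it was Sfn. Of the 6, Dsp and Cdh1 passed the cutoffs as higher and Epcam as lower, against 11.9% and 12.5% of all genes. The part of epithelial cells in the Lgals7 values was not tested.

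Lgals1 lies on chromosome 15 at 78926725 to 78930465. It had values of 271, 315 and 193 CPM in the WT samples against 1031, 1144 and 1171 CPM in the KO samples. WT replicate 3 was the lowest sample, and the lowest KO sample was above the highest WT sample by a log2 difference of 1.71. The log2 fold change was 2.10 (SE 0.17), and 1.92 without WT replicate 3. The 10 proliferation genes moved with genotype in the same way. All 10 passed the cutoffs as higher in KO, against 11.9% of all genes, and their sum was lowest in WT replicate 3. Their part in the Lgals1 values was not tested.

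Among the galectins with a pair of domains, Lgals9 lies on chromosome 11 at 78962974 to 78984946. Its protein is a ligand of TIM-3, an inhibitory receptor of T cells. Lgals9 had values of 138, 152 and 205 CPM in the WT samples against 141, 138 and 132 CPM in the KO samples. The KO samples lay between 132 and 141 CPM, near WT replicates 1 and 2, and WT replicate 3 was the highest sample. The log2 fold change was -0.27 (SE 0.14), and -0.087 without WT replicate 3.

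Lgals8, on chromosome 13 at 12439415 to 12464944, encodes a galectin that binds integrins and marks damaged vesicles for autophagy. It had values of 66.5, 67.3 and 86.4 CPM in the WT samples against 71.2, 68.3 and 66.2 CPM in the KO samples. The genotypes overlapped, and WT replicate 3 was again the highest sample. The log2 fold change was -0.097 (SE 0.11), and it changed sign to 0.033 without WT replicate 3.

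Lgals4, on chromosome 7 at 28833854 to 28841708, encodes a galectin known from the epithelium of the gut. It had values of 10.6, 7.37 and 16.8 CPM in the WT samples against 6.16, 7.92 and 6.52 CPM in the KO samples. KO replicate 2 was above WT replicate 2, so the groups overlapped although the gene passed the cutoffs (log2 fold change -0.75, SE 0.29). Without WT replicate 3 the log2 fold change was -0.39 and the gene no longer passed. Leaving out WT replicate 1 or any KO sample also ended the call. Lgals4 was thus lower and Lgals7 higher in the mean of KO, although the genes lie 22144 bases apart.

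**Figure D2:**
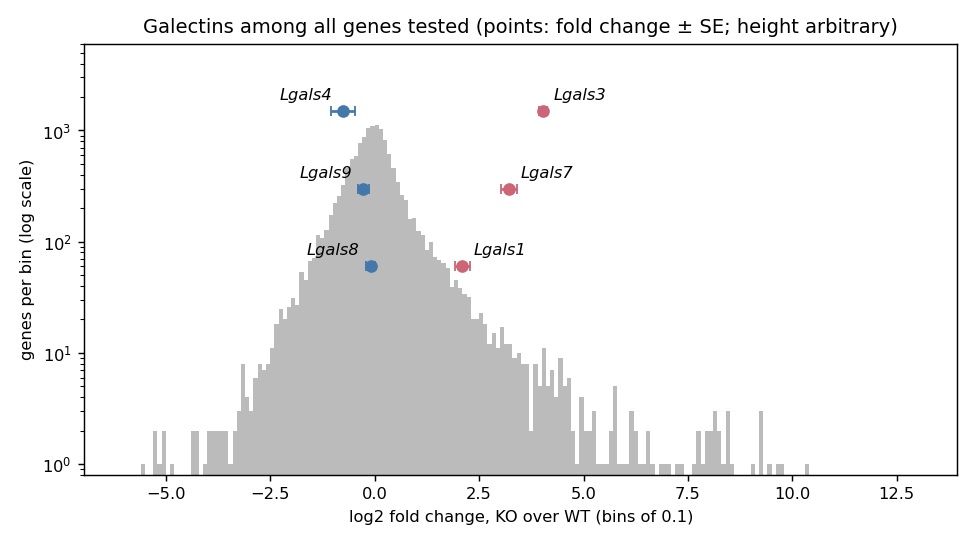
Log2 fold changes of KO over WT (x axis, bins of 0.1) for all 13594 genes tested, as gray bars with the number of genes per bin on a log axis, and the 6 galectins as points with their SE, set at arbitrary heights. Lgals3, Lgals7 and Lgals1 lie at 4.03, 3.22 and 2.10, and the other galectins between -0.75 and -0.097.

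To compare levels between the galectins, CPM was divided by the length of the exons of each gene in kilobases. In WT the order from the highest was Lgals1 at 287.5 ± 68.7, Lgals9 at 77.3 ± 16.5, Lgals8 at 19.9 ± 3.05, Lgals3 at 8.97 ± 0.97, Lgals4 at 5.004 ± 2.07 and Lgals7 at 1.38 ± 0.23 CPM per kilobase (SD, n = 3). In KO it was Lgals1 at 1235 ± 82.2, Lgals3 at 147 ± 3.96, Lgals9 at 64.2 ± 2.09, Lgals8 at 18.6 ± 0.68, Lgals7 at 12.9 ± 0.99 and Lgals4 at 2.97 ± 0.40 CPM per kilobase (SD, n = 3). Lgals3 thus stood below Lgals9 and Lgals8 in WT and above both in KO, and Lgals7 passed Lgals4. In both genotypes the ranges of neighbors in the order did not overlap. With the length of the longest transcript in place of all exons the order was the same.

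The makeup of the family shifted accordingly. Per length, Lgals1 made up 71.2% ± 8.95 of galectin expression in WT and 83.4% ± 0.93 in KO (SD, n = 3). Lgals3 made up 2.28% ± 0.46 in WT and 9.93% ± 0.42 in KO, while Lgals9 made up 19.8% ± 6.58 and 4.35% ± 0.38. The ratio of Lgals3 to Lgals9 per length was 0.120 ± 0.030 in WT and 2.29 ± 0.14 in KO. The ratio of Lgals1 to Lgals3 was 32.6 ± 10.5 in WT and 8.41 ± 0.44 in KO. Galectin counts together were 0.0508% to 0.0573% of all counts in WT samples and 0.151% to 0.165% in KO samples.

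**Figure D3:**
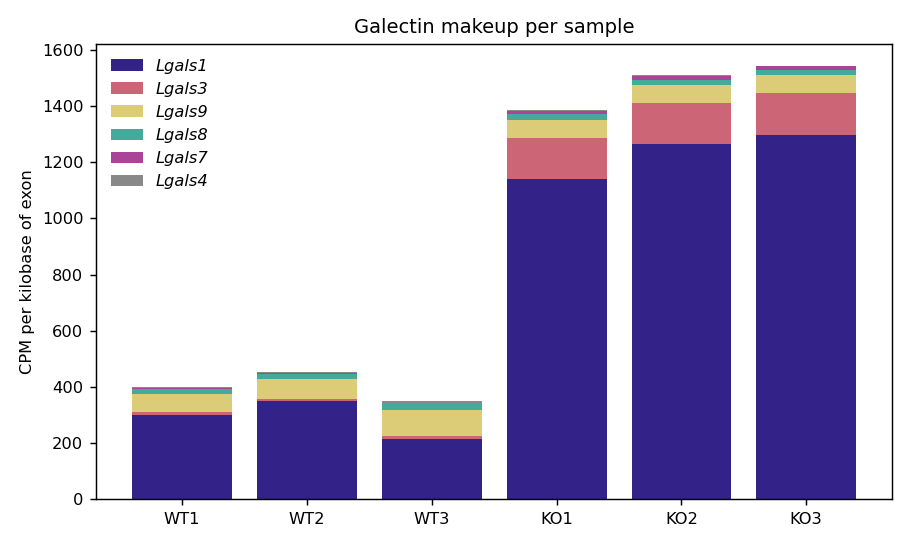
Galectin expression per sample in CPM per kilobase of exon (y axis), stacked by gene, for WT replicates 1 to 3 and KO replicates 1 to 3. The bars reach 350 to 451 in WT and 1387 to 1545 in KO, and the Lgals3 part is taller than the Lgals9 part in KO but not in WT.

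The spread among samples of a genotype also differed. The coefficient of variation over the 3 WT samples was 10.8% for Lgals3 and 41.3% for Lgals4, the lowest and the highest of the 6. Over the 3 KO samples it was 2.70% for Lgals3 and 13.5% for Lgals4. WT replicate 3 differed from the mean of WT replicates 1 and 2 by 0.90 in log2 for Lgals4, 0.50 for Lgals9 and 0.37 for Lgals8, and by -0.60 for Lgals1 and -0.41 for Lgals7. For Lgals3 this difference was 0.036.

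The genes whose log2 CPM was most like each galectin were found by Pearson's r over the 6 samples, among 9882 genes that averaged 5 CPM or more. These values are a description, since the samples form 2 groups and share their libraries. Closest to Lgals3 were Trim36, Tbx21 and Il18rap (r at least 0.999), the last 2 encoding the Th1 factor T-bet and a subunit of the IL-18 receptor. Closest to Lgals7 were Acly, Ifng and Eno1 (r at least 0.999), which encode ATP citrate lyase, IFN-γ and the glycolytic enzyme enolase. Closest to Lgals1 were Arhgef6, Tpm3 and Itga1 (r at least 0.998), of which Itga1 encodes the collagen-binding integrin alpha-1 and went from 0.461 ± 0.358 to 23.2 ± 1.77 CPM. For Lgals4 they were Crtc3, Dido1 and Arid1a, for Lgals8 Cop1, Rc3h1 and Samd9l, and for Lgals9 Atp1b3, Ythdc1 and Mpp5, with r from 0.990 to 0.998. The last 9 genes had log2 fold changes between -0.36 and -0.091. Lgals4, Lgals8 and Lgals9 were each highest in WT replicate 3, and the part of that sample in their likeness was not tested.

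Genes related to the galectins by name or fold were examined next. Lgals3bp, which encodes a secreted glycoprotein bound by galectin-3 and galectin-1, had values of 93.3, 91.7 and 150 CPM in the WT samples against 188, 201 and 191 CPM in the KO samples. The gene rose by a log2 fold change of 0.79 (SE 0.18; edgeR adjusted p 0.0114), with no overlap of the genotypes. Lgalsl averaged 11.6 ± 2.89 CPM in WT against 17.2 ± 1.74 CPM in KO. Its log2 fold change of 0.57 (SE 0.20; edgeR adjusted p 0.0519) lay just under the fold cutoff. It passed with DESeq2 or RLE scaling (0.59 in both), with the replicate block (0.594), and when WT replicate 1 (0.66), WT replicate 2 (0.69) or KO replicate 1 (0.63) was left out. It was 0.37 without WT replicate 3. Grifin, whose call was lost without WT replicate 1, KO replicate 2 or KO replicate 3, fell from 5.63 ± 0.51 to 3.70 ± 0.31 CPM, by a log2 fold change of -0.60 (SE 0.19; edgeR adjusted p 0.0375). Of these 3 genes, 1 rose and 1 fell, against 24.4% of all genes called.

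Counter-receptors, the cell surface and membrane glycoproteins that galectins are known to bind, were compared as a list of 16 genes. Of these, 4 rose, 2 fell and 10 did not pass, which is 37.5% called against 24.4% of all genes, and the median log2 fold change was 0.29 against -0.04 for all genes. Havcr2, which encodes TIM-3, the receptor of galectin-9, had values of 3.12, 2.86 and 11.9 CPM in the WT samples against 100.1, 86.6 and 85.1 CPM in the KO samples. This rise, of 3.93 on the log2 scale (SE 0.52), had an edgeR adjusted p of 0.000947. Without WT replicate 3, the highest WT sample, it was 4.91. All KO samples were thus above all WT samples, while its ligand Lgals9 overlapped between genotypes. TIM-3 is also made by macrophages, whose markers moved with genotype as given above, and their part in the Havcr2 values was not tested. Cd7 and Spn, which encode the galectin-1 receptors CD7 and CD43, rose at log2 fold changes of 1.56 and 0.79 (edgeR adjusted p 0.00116 and 0.000127). Itgb1, which encodes integrin beta-1, rose from 342 ± 116 to 890 ± 15.7 CPM, by a log2 fold change of 1.38 (edgeR adjusted p 0.00296). Itga4, whose integrin alpha-4 pairs with beta-1, fell from 399 ± 32.1 to 179 ± 5.23 CPM, by a log2 fold change of -1.16 (edgeR adjusted p 5.36e-05), and it shares exon sequence with Cerkl. Tnfrsf25, which encodes the galectin-9 partner DR3, fell from 177 ± 15.1 to 107 ± 4.75 CPM, by a log2 fold change of -0.73 (edgeR adjusted p 0.000484). Ptprc, which encodes CD45, the abundant phosphatase that galectins bind on T cells, averaged 1900 ± 29.4 CPM in WT against 1892 ± 35.4 CPM in KO, with an edgeR adjusted p of 0.945. Cd44, which encodes an adhesion molecule, averaged 150 ± 24.7 CPM in WT against 139 ± 4.12 CPM in KO (edgeR adjusted p 0.510).

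The sugars that galectins bind are built in the Golgi. Of 21 genes of this synthesis, 2 rose, 2 fell and 17 did not pass, which is 19.0% called against 24.4% of all genes, with a median log2 fold change of 0.08. Gcnt1, the core 2 enzyme that makes branched O-glycans bound by galectin-1, had values of 47.8, 46.8 and 32.3 CPM in the WT samples against 112, 121 and 115 CPM in the KO samples. This rise, of 1.46 on the log2 scale (SE 0.15), had an edgeR adjusted p of 0.000311. Mgat5, which adds the N-glycan branch that galectin-3 binds best, had values of 120, 101 and 97.1 CPM in the WT samples against 69.9, 68.3 and 62.9 CPM in the KO samples. The gene fell by a log2 fold change of -0.66 (SE 0.10; edgeR adjusted p 0.00140), with no overlap of the genotypes. Without WT replicate 1 its log2 fold change was -0.56, under the fold cutoff. Mgat5 shares exon sequence with Tmem163. Mgat4b, another branching enzyme, fell from 17.8 ± 2.38 to 9.26 ± 0.20 CPM, by a log2 fold change of -0.94 (edgeR adjusted p 0.00128). The remaining call was B4galt2, which averaged 0.307 ± 0.165 CPM in WT against 0.862 ± 0.192 CPM in KO, a low gene that overlaps its neighbors and is named because the list had few calls.

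Sialyltransferases cap galactose, and alpha-2,6-linked sialic acid is known to block binding by galectin-1. Of 6 tested, 1 rose and 5 did not pass, which is 16.7% called against 24.4% of all genes, and the median log2 fold change was 0.03. St3gal6 rose from 2.05 ± 1.23 to 8.13 ± 0.33 CPM, by a log2 fold change of 1.99 (SE 0.38; edgeR adjusted p 0.00511), and it shares exon sequence with Dcbld2. Leaving out WT replicate 3 gave 2.59. St6gal1, the enzyme that makes the 2,6 linkage, had values of 266, 261 and 208 CPM in the WT samples against 171, 170 and 168 CPM in the KO samples. All KO samples were lower, and the log2 fold change of -0.53 (SE 0.10; edgeR adjusted p 0.00447) was under the fold cutoff. Without WT replicate 3 it was -0.64 and passed.

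Inside the cell, galectin-3, galectin-8 and galectin-9 recruit autophagy proteins to damaged vesicles. A wider list held 9 genes of adaptors for damaged endosomes or autophagy, not limited to those that galectins recruit. Of these, 3 rose, 1 fell and 5 did not pass. This is 44.4% called against 24.4% of all genes, with a median log2 fold change of 0.13. Trim16, whose protein binds galectin-3 at damaged lysosomes, rose from 0.904 ± 0.821 to 5.38 ± 0.36 CPM, by a log2 fold change of 2.58 (SE 0.59; edgeR adjusted p 0.0108), and it shares exon sequence with Fbxw10. Its log2 fold change without WT replicate 3 was 3.62. Optn, which encodes the autophagy receptor optineurin, rose from 1.44 ± 0.59 to 6.07 ± 0.46 CPM, by a log2 fold change of 2.07 (edgeR adjusted p 0.00242). Pdcd6ip, which encodes ALIX, a galectin-3 partner in membrane repair, rose from 190 ± 17.3 to 296 ± 5.99 CPM, by a log2 fold change of 0.64 (edgeR adjusted p 0.000785). Calcoco1 fell from 82.7 ± 8.40 to 49.8 ± 1.93 CPM, by a log2 fold change of -0.73 (edgeR adjusted p 0.000712). Without WT replicate 1, Pdcd6ip was at 0.58, just under the fold cutoff.

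**Figure D4:**
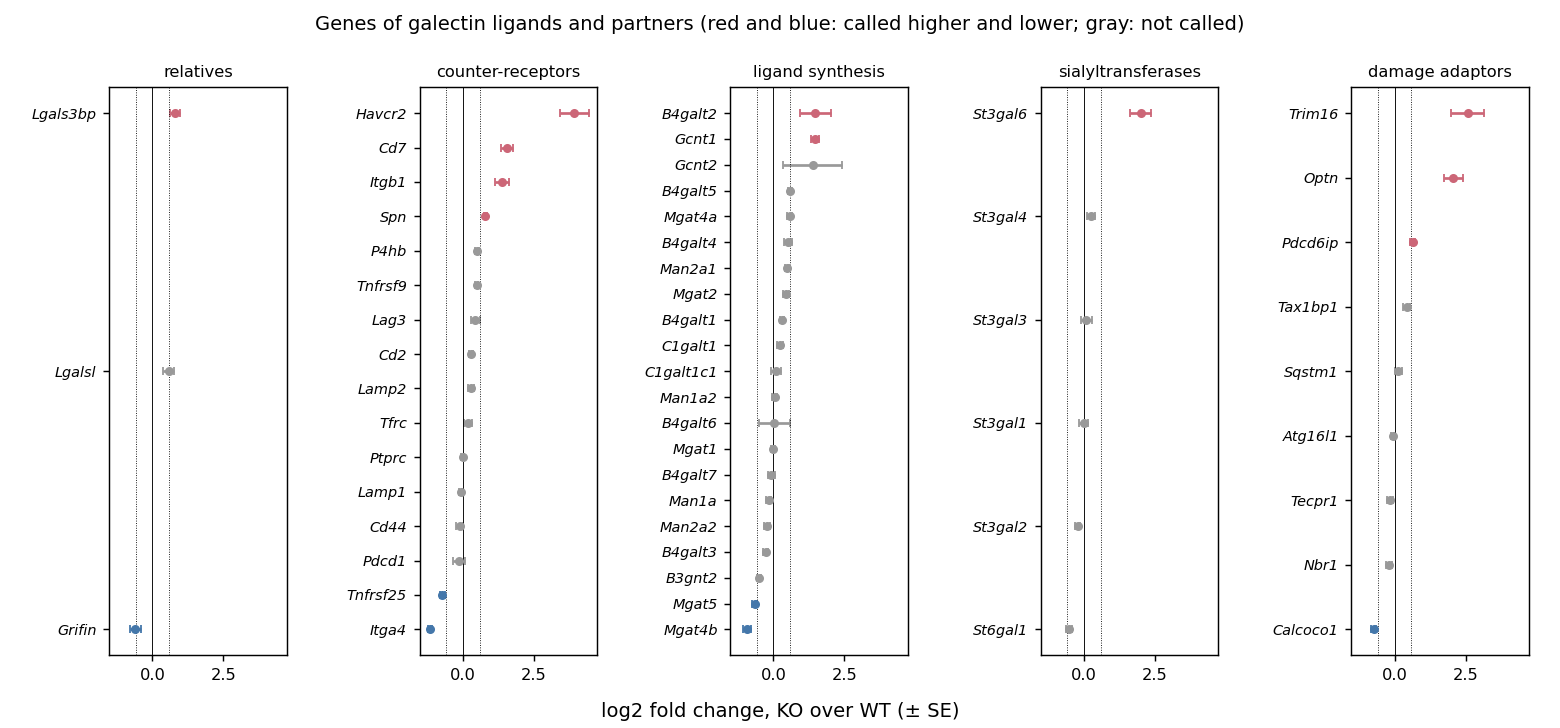
Log2 fold changes of KO over WT with their SE (x axis) for the tested genes of the 5 lists, with genes ordered by value within each panel. Red points passed the cutoffs as higher, blue points as lower, and gray points did not pass. Dotted lines mark the fold cutoff of 1.5 in either direction, and Havcr2, at 3.93, is the farthest point.

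Finally, the promoters were read for short motifs. RefSeq (GRCm38.p6) windows around the transcription start were found for 5 of the 6 galectins, all but Lgals1. Those of Lgals3 (chr14:47373610-47373909), Lgals7 (chr7:28864136-28864435) and Lgals8 (chr13:12461689-12461988) lie inside the gene spans given above. The outermost starts of these genes were thus not read. The GC box GGGCGG, on either strand, was present in those of Lgals3, Lgals4 and Lgals7 and absent from those of Lgals8 and Lgals9, and 35.7% of all 32851 promoter windows hold it. The TATA box TATAAA, the AP-1 motif TGANTCA, the CRE motif TGACGTCA, the E-box CACGTG and the STAT motif TTCNNNGAA were in none of the 5 windows on either strand. In all promoter windows their shares were 13.6%, 7.81%, 1.79%, 7.15% and 8.30%.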

How the data were processed

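RNA-Seq counts of 6 Treg samples were used. The study's methods name SOAPnuke for filtering, HISAT2 for alignment to mm10 (at most 1 alignment reported a read) and StringTie for TPM values. The authors deposited whole-number counts per gene without normalization. How these were made, the annotation and the use of strand are not given in the sources used here. The smallest sum of a row was 60, so low genes had been removed. With R 4.3.3 and edgeR 4.0.16, genes passing filterByExpr (minimum count 10) were scaled by TMM, and KO was compared with WT by the quasi-likelihood F-test, two-sided, with Benjamini-Hochberg adjustment over 13594 genes. SE was the log2 fold change divided by the square root of F. Depth gives a floor of 3 counts, which covers counting error only. The procedure was tested on simulated data.

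The members and lists were chosen with earlier results of these data known. Genes named are all galectins, Zfp335, called genes of the lists with a mean of at least 5 CPM in either genotype, 9 set genes, the 3 genes most like each galectin and defining markers. B4galt2, Sfn, Dsp, Cdh1, Epcam, Itgax, Cd22, Cd79b, Col1a2, Pecam1, Cd8a, Cd8b1, Klrb1c, Ncr1, Eomes and Ikzf2 were chosen after their values were seen. The same holds for S100a9, Ltf, Flt3, Siglech, Zbtb46, Xcr1, Mpeg1, Cd68, C1qa, Mrc1 and Aif1. Lengths and exons came from GENCODE M21. Alternatives were DESeq2 1.42.0, other scalings, filters and cutoffs, GC and length offsets, a replicate block and leaving out each sample. Samples of 1 genotype differed by more than sampling noise. Batches were not given in the labels.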

Additional observations from a re-analysis of the deposited data

How the results depend on the processing

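Lgals1, Lgals3 and Lgals7 kept their direction and passed the cutoffs in all 15 alternatives, with log2 fold changes of 1.92 to 2.26, 3.95 to 4.11 and 3.10 to 3.32. Lgals9 was not called in any, at -0.38 to -0.087. Lgals8 ranged from -0.16 to 0.033 when single samples were left out. Lgals4 kept its direction in all 15 and its call in 7. It was not called by adjusted p alone (under 0.05) or with glmTreat against 1.5-fold (-0.75 in both), nor with the replicate block (-0.69, adjusted p 0.122), and the cause was not tested. When single samples were left out it ranged from -0.998 to -0.39. By adjusted p alone, 5244 of all genes, 11 synthesis genes and 2 sialyltransferases were called, and with glmTreat 1686 of all genes, 0 relatives, 2 synthesis genes and 2 adaptors, since these cutoffs differ in how they treat fold size. DESeq2 called 3402 of all genes and the replicate block 3190, of which 3100 were shared with the fit without it. Same-numbered samples did not deviate together (correlations 0.038, 0.040 and -0.012), so the numbers were not taken to pair samples, and the block ended no other galectin call. Without single samples, calls ranged from 2867 to 3667 for all genes, 1 to 3 for the relatives and 1 to 2 for the sialyltransferases. Ptprc reversed to 0.012 with DESeq2, 0.011 with RLE scaling, 0.0028 with at least 10 counts in every sample and 0.038 with GC and length offsets, and ranged from -0.021 to 0.0038 without single samples. Of the galectins, Lgals7 had the fewest counts, 35 to 49 in WT samples.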
